A study of Mus musculus with 4 samples.

Results

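The miR-29 family comprises 3 related microRNAs, miR-29a, miR-29b and miR-29c, and was followed here through every mature arm that the count table lists by name. These were 7 names of 1900 in the table, 3 of them 3p arms and 4 of them 5p arms, chosen by name and not by their values: mmu-miR-29a-3p, mmu-miR-29b-3p and mmu-miR-29c-3p, and mmu-miR-29a-5p, mmu-miR-29b-1-5p, mmu-miR-29b-2-5p and mmu-miR-29c-5p (the mouse prefix mmu is left off from here on). The data were 4 small RNA libraries from the olfactory bulb of C57BL/6 mice, the forebrain region that receives newborn neurons in adult life, described in the labels as AGO2-RIPseq, that is, made after RNA immunoprecipitation of AGO2, the Argonaute protein that carries mature miRNAs to their targets. The GFP-AGO2 group (n = 2, replicates 1 and 3) came from mice injected with LV.PGK.GFP-AGO2, a viral vector whose name joins AGO2 to green fluorescent protein behind the PGK promoter, and the Control group (n = 2, replicates 1 and 3) came from sham-injected mice, for which no vector is listed. Bulbs of both groups were taken 8 weeks after injection. The labels name whole bulb tissue as the source and the study's design text newborn neurons as its target; the labels used here do not state the age of the mice or the antibody. Whether the pull-down was directed at AGO2 itself or at the GFP tag, which Control mice lack, is therefore not known, and with it whether the Control libraries hold miRNAs bound to AGO2 or background of the pull-down. Nor do they state whether 1 or several mice stand behind the libraries of a group, so that p-values below reflect only how far these libraries differed, which can be technical variation.

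The libraries held 1858354 to 2809758 miRNA counts in GFP-AGO2 and 673916 to 1006861 in Control. The 12 names of a neuron-enriched list, of which miR-136-5p was listed at 0, summed to 34612 to 39923 CPM in GFP-AGO2 and 34828 to 43131 CPM in Control (CPM, counts scaled to a common library size after TMM normalisation). Of this, miR-7a-5p alone gave 16234 to 18809 CPM in GFP-AGO2 and 18195 to 23018 CPM in Control. A list of astrocytes and other glia summed to 31790 to 32238 CPM in GFP-AGO2 and 36730 to 37251 CPM in Control. Its names miR-24-3p and miR-193a-3p were listed at 0, and 1 of these 2 overlaps another name in the annotation. Most of the sum was miR-181a-5p, at 20752 to 20755 CPM in GFP-AGO2 and 28128 to 29117 CPM in Control. Such sums do not by themselves show which cells the RNA came from. Of 6 oligodendrocyte-enriched names, 5 were listed at 0 in every library, all of which overlap another name in the annotation, so these zeros do not show absence.

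A miRNA hairpin is cut into a 5p and a 3p arm, of which 1 is usually kept in Argonaute as the guide; in the miR-29 family this is the 3p arm. The seed, bases 2 to 8 of the guide, pairs with target mRNAs, and known targets of miR-29 include collagens and other matrix genes, the DNA methyltransferases Dnmt3a and Dnmt3b, and BH3-only genes that promote cell death in neurons. In mouse brain the family is known to be low in the embryo and high in mature neurons and glia.

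The 3p arms are shown first because they carry the shared seed, which is in capitals (RefSeq sequences, GRCm38.p6, 5′ to 3′).
miR-29a-3p: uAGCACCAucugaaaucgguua
miR-29b-3p: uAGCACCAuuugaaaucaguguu
miR-29c-3p: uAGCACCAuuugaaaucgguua
The 3 arms had the same seed, and none of the other names in the table with a known sequence shared it. MiR-29c-3p differed from miR-29a-3p by 1 base of 22, C10U, counted from the 5′ end with the base of miR-29a-3p first. MiR-29b-3p carried C10U, G18A, U21G and A22U relative to miR-29a-3p and had 1 more base at its 3′ end. Reads of miR-29c-3p and of a misread miR-29a-3p can therefore not be told apart by sequence, and the low level of miR-29c-3p is uncertain to that extent.

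The last 6 bases separate miR-29b-3p from its relatives and are in capitals here, because the ending AGUGUU of miR-29b is known from human cells as a signal for import into the nucleus.
miR-29a-3p: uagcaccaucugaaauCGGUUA
miR-29b-3p: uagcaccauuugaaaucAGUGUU
miR-29c-3p: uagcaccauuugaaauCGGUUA
Of 1603 names in the table with a RefSeq sequence, 2 ended in AGUGUU, miR-29b-3p and miR-92b-5p.

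The 5p arms, shown because they tell the hairpins apart, each had a different seed, again in capitals; that of miR-29b-2-5p is shared with miR-6338.
miR-29a-5p: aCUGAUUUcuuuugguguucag
miR-29b-1-5p: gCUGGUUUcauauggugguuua
miR-29b-2-5p: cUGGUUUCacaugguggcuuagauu
miR-29c-5p: uGACCGAUuucuccugguguuc

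The arms come from 4 hairpins at 2 loci (mm10). On chromosome 6, minus strand, Mir29b-1 lies at 31063023 to 31063093 and Mir29a at 31062660 to 31062747, with 275 bases between them, in a stretch where GENCODE M21 has no other gene over any of the mature arms. On chromosome 1, plus strand, Mir29b-2 lies at 195037040 to 195037120 and Mir29c at 195037547 to 195037634, 426 bases apart. Their mature arms fall within exon 3 of a transcript of the noncoding gene A330023F24Rik, and that transcript is annotated as a retained intron. The chromosome 1 hairpins also lie opposite a UTR in exon 11 of Cd46, which is read from the other strand, and the counting command carries no strand option. MiR-29b-3p is made with the same sequence at both loci, at 31063025 to 31063047 and 195037091 to 195037113, so its counts cannot be assigned to either. No member overlapped another name in the table.

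**Figure D1:**
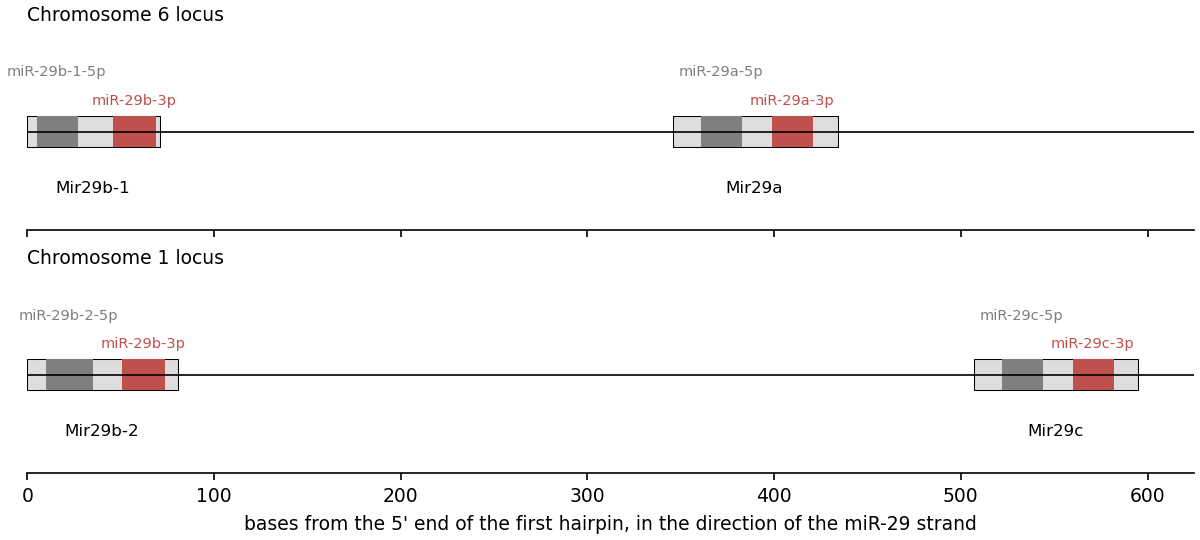
Map of the chromosome 6 locus (top) and the chromosome 1 locus (bottom), in bases from the 5′ end of the first hairpin along the miR-29 strand. Light boxes are hairpins, dark grey boxes 5p arms and red boxes 3p arms; each locus holds 1 miR-29b hairpin upstream of a miR-29a or miR-29c hairpin.

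One arm accounted for nearly the whole family in every library. MiR-29a-3p had 14648 and 10983 counts in GFP-AGO2 replicates 1 and 3, against 6332 and 3774 in Control replicates 1 and 3. It made up 96.4% and 95.8% of the family's counts in GFP-AGO2 and 95.9% and 95.5% in Control. By mean CPM over the 4 libraries it was in place 29 of the 457 names tested, while miR-29b-3p was in place 179, miR-29c-3p in place 236, miR-29b-2-5p in place 317 and miR-29c-5p in place 356. All of these are products of 22 to 25 bases, so the counts were not divided by length, and differences in ligation between sequences were not tested.

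From high to low, miR-29a-3p, miR-29b-3p and miR-29c-3p kept this order in every library, with gaps wider than the spread between replicates. Among the 5p arms the order was less clear. MiR-29b-2-5p had 33 and 40 counts in GFP-AGO2, where miR-29c-5p had 29 and 36, so that these neighbours overlapped there; in Control they had 29 and 17 and 15 and 9. MiR-29b-1-5p had 16 and 9 counts in GFP-AGO2 and 2 and 1 in Control. MiR-29a-5p, the partner of the most abundant arm, had 4 and 5 counts in GFP-AGO2 and 7 and 0 in Control, and the count of 0 in Control replicate 3 allows up to 4.95 CPM (3 counts). MiR-29b-1-5p had more counts than miR-29a-5p in both GFP-AGO2 libraries (16 against 4 and 9 against 5) and fewer in Control replicate 1 (2 against 7). Counts this low leave the order uncertain, and it was not tested. In Control replicate 3 their order is not known at this depth.

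**Figure D2:**
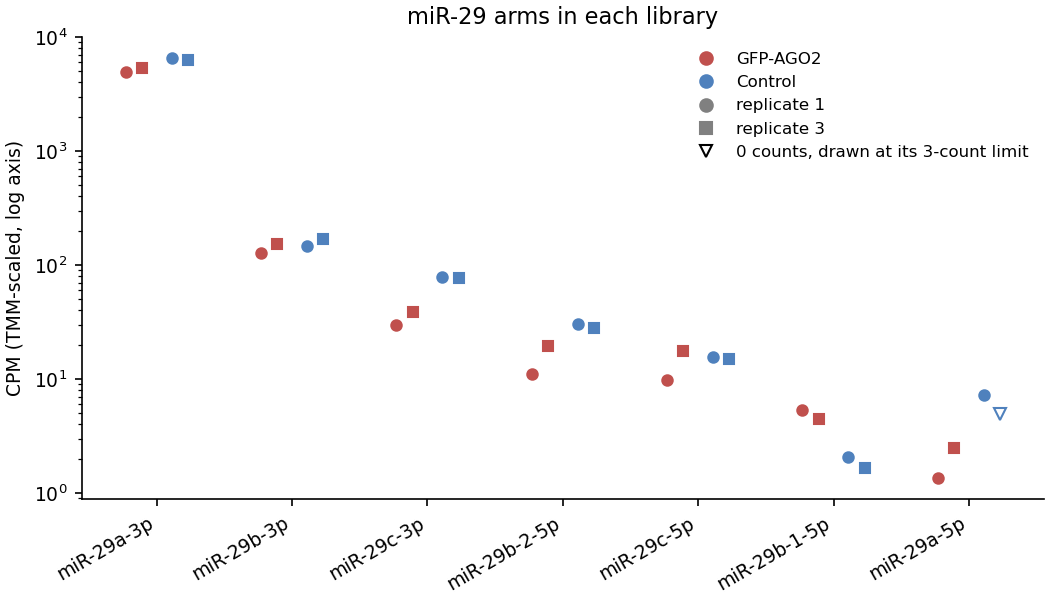
TMM-scaled CPM on a log axis for each miR-29 arm, with GFP-AGO2 in red on the left and Control in blue on the right of each name, circles for replicate 1 and squares for replicate 3. MiR-29a-3p lies at 4929.6 to 6582 CPM, far above the other arms; the open triangle is a count of 0 drawn at its limit of 4.95 CPM.

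Setting GFP-AGO2 beside Control addressed how the miRNAs recovered by the pull-down differed between vector-injected and sham-injected mice, in a study of let-7 in migrating newborn neurons. Of the 7 arms, 5 passed the filter on low counts and were tested with edgeR's quasi-likelihood test, with Benjamini-Hochberg adjustment over 457 names and a call at an adjusted p under 0.05. MiR-29c-3p fell, although with no scaling its sign turned round, and 0 arms rose, also at an unadjusted p under 0.05 and with DESeq2. Among all names tested 34.4% were called, 17.1% lower and 17.3% higher, so that 1 of 5 arms called lower is near the background. With no scaling, 20 names were called lower and 264 higher, against 78 and 79 with TMM. Both GFP-AGO2 libraries lay below both Control libraries for 3 of the 5 tested arms, against 35.2% of all names tested, and above them for 0 of the 5, against 36.8%. The 5 log2 fold changes (GFP-AGO2 over Control) had a median of -0.31, and all names tested had a median of -0.01.

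MiR-29c-3p, the least abundant of the 3 guides, had 88 and 79 counts in GFP-AGO2 replicates 1 and 3 and 75 and 47 in Control replicates 1 and 3. Scaled, these were 29.6 and 38.8 CPM in GFP-AGO2, against 78.0 and 77.6 CPM in Control. Both GFP-AGO2 libraries lay below both Control libraries, and the Control libraries were nearly equal. With 2 libraries of 75 and 47 counts, such closeness can understate the spread in Control. The means were 34.2 ± 6.47 CPM in GFP-AGO2 and 77.8 ± 0.264 CPM in Control (SD, n = 2 each), and the edgeR fit gave a log2 fold change of -1.19 (SE 0.29, 95% interval -1.91 to -0.47, adjusted p = 0.028), or 0.439 of the Control level. The call was lost with library totals in place of TMM (-0.97, adjusted p = 0.0581), with no filter (-0.95, adjusted p = 0.0774), without GFP-AGO2 replicate 1 (-0.98, adjusted p = 0.0576) and without Control replicate 1 (-1.09, adjusted p = 0.0957). With no scaling the value was 0.45, where the median of all names stood at 1.67.

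MiR-29a-3p, the dominant guide, had 4929.6 and 5389 CPM in GFP-AGO2 and 6582 and 6230.2 CPM in Control. The groups did not overlap, but the difference did not pass the test. The means were 5159 ± 325 CPM in GFP-AGO2 and 6406 ± 249 CPM in Control (SD, n = 2 each; edgeR log2 fold change -0.31, SE 0.13, 95% interval -0.64 to 0.01, adjusted p = 0.119). It was called lower without GFP-AGO2 replicate 3 (-0.36, adjusted p = 0.0462), where the spread came from the Control libraries alone, and called higher with no scaling (1.34, adjusted p = 0.0382).

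MiR-29b-3p, which pools the product of both loci, had 127 and 153 CPM in GFP-AGO2 and 148 and 168 CPM in Control. The libraries of the groups overlapped. Its mean was 140.0 ± 18.5 CPM in GFP-AGO2 and 158.0 ± 14.7 CPM in Control (SD, n = 2 each; edgeR log2 fold change -0.17, SE 0.20, 95% interval -0.69 to 0.34, adjusted p = 0.55). Its sign was not stable, with 0.046 under library totals and a call as higher with no scaling (1.497, adjusted p = 0.016).

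Of the 5p arms, miR-29b-2-5p had 11.1 and 19.6 CPM in GFP-AGO2 and 30.1 and 28.1 CPM in Control, without overlap (edgeR log2 fold change -0.93, SE 0.46, 95% interval -2.09 to 0.22, adjusted p = 0.171). Leaving out GFP-AGO2 replicate 1 gave -0.55, and leaving out replicate 3 of that group gave -1.37. MiR-29c-5p, the partner of miR-29c-3p, had 9.76 and 17.7 CPM in GFP-AGO2 and 15.6 and 14.9 CPM in Control, and here the Control libraries lay between the GFP-AGO2 libraries (edgeR log2 fold change -0.17, SE 0.52, 95% interval -1.49 to 1.16, adjusted p = 0.849). This interval includes a 2-fold change in either direction for miR-29c-5p, and no limit of detection was computed.

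MiR-29b-1-5p and miR-29a-5p did not pass the filter. MiR-29b-1-5p had 5.38 and 4.42 CPM in GFP-AGO2 and 2.08 and 1.65 CPM in Control. Its summed counts of 25 in GFP-AGO2 and 3 in Control gave a ratio of 2.61 after scaling, with an exact counting interval of 0.796 to 13.5. MiR-29a-5p had summed counts of 9 and 7, a ratio of 0.402 with an interval of 0.133 to 1.27. Both intervals include equal levels and cover counting error only.

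**Figure D3:**
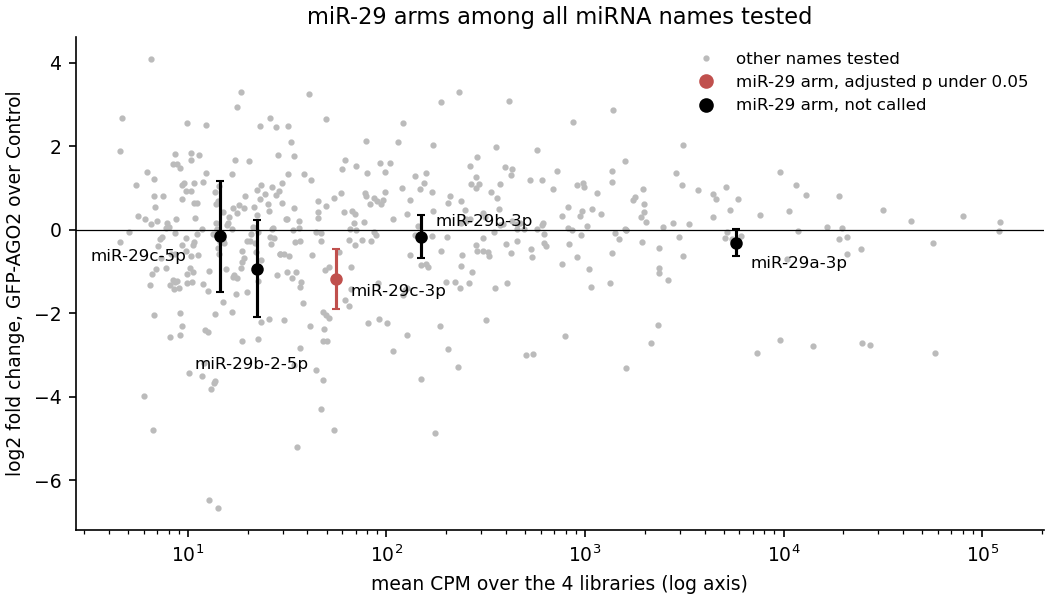
Log2 fold change of GFP-AGO2 over Control (TMM scaling) against mean CPM on a log axis for the 457 names tested, with the 5 tested miR-29 arms named and their 95% intervals drawn. MiR-29c-3p (red, -1.19) is the arm that was called, and the other 4 arms (black) lie between -0.93 and -0.17. With no scaling the signs of all 5 arms turn round, those of miR-29b-3p and miR-29c-5p also with library totals or no filter.

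Ratios of arms within a library do not depend on scaling. MiR-29c-3p had 0.601 and 0.719 counts per 100 counts of miR-29a-3p in GFP-AGO2 replicates 1 and 3, against 1.18 and 1.25 in Control replicates 1 and 3. The ratio was lower in GFP-AGO2 in 4 of 4 pairs of libraries, by 0.89 on the log2 scale, more than the SD within either group (0.18 in GFP-AGO2 and 0.06 in Control). These SDs rest on 2 libraries each, and in Control on 75 and 47 counts of miR-29c-3p, so they can understate the spread. The exact two-sided permutation test gave p = 0.333, the smallest that 2 libraries against 2 allow, and p = 0.556 after Benjamini-Hochberg adjustment over the 5 ratios examined. MiR-29b-3p, in contrast, had 2.57 and 2.84 counts per 100 of miR-29a-3p in GFP-AGO2 and 2.24 and 2.70 in Control, and the groups overlapped (exact permutation p = 0.667).

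The 2 arms of the miR-29c hairpin also differed in their balance. There were 3.03 and 2.19 counts of miR-29c-3p per count of miR-29c-5p in GFP-AGO2, against 5 and 5.22 in Control. This was a log2 difference of -0.95, lower in 4 of 4 pairs of libraries (exact permutation p = 0.333, adjusted p = 0.556), and it rests on the low counts of the 5p arm given above. For miR-29b the ratio of the 3p arm to both 5p arms together was 7.69 and 6.37 in GFP-AGO2 and 4.58 and 5.67 in Control, a log2 difference of 0.47 in the other direction, again without overlap (exact permutation p = 0.333, adjusted p = 0.556). For miR-29a the 3p arm outnumbered the 5p arm 3662-fold and 2197-fold in GFP-AGO2 and 905-fold in Control replicate 1. In Control replicate 3 the 5p arm had no count, so that this library gives no ratio without an added count. With 0.5 added to each count the log2 difference was 0.01 and the groups overlapped (exact permutation p = 1), and with 1 added it was 0.42.

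**Figure D4:**
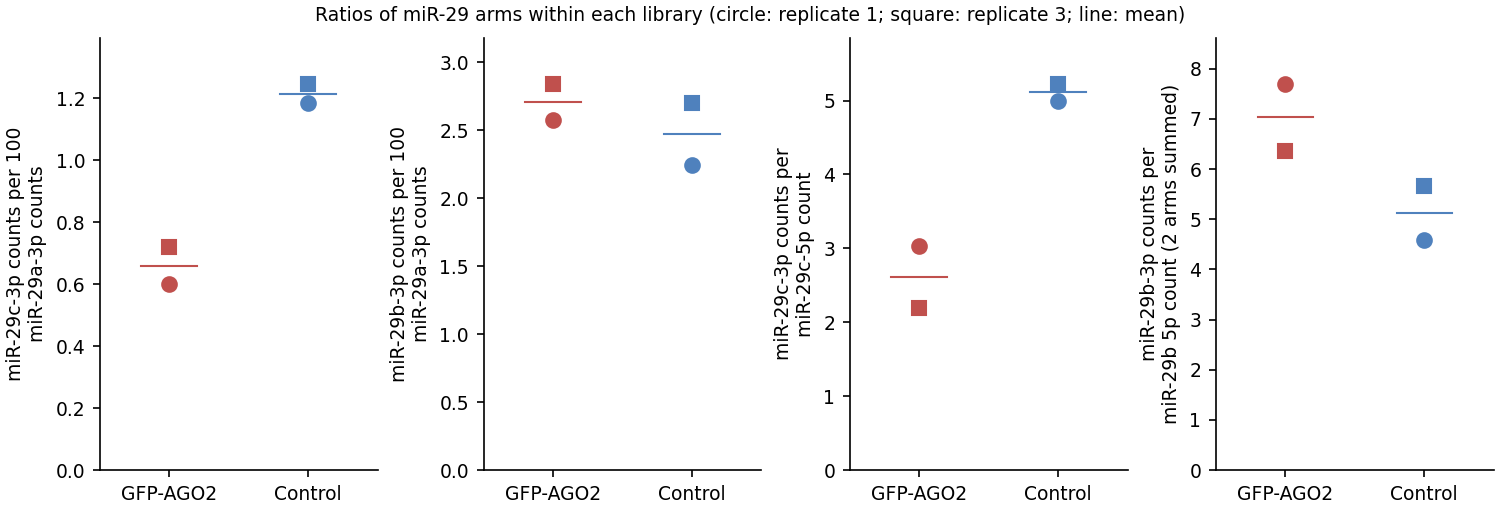
Ratios of miR-29 arms in each library, with GFP-AGO2 in red left of Control in blue, circles for replicate 1, squares for replicate 3 and a line at the mean. The ratio of miR-29c-3p to miR-29a-3p (0.601 and 0.719 per 100 against 1.18 and 1.25) and that of miR-29c-3p to miR-29c-5p lie lower in both GFP-AGO2 libraries, while miR-29b-3p to miR-29a-3p overlaps between the groups.

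The hairpin-specific names allow the 2 loci to be set side by side, a description chosen after the values were seen and given without a test. Names made only at the chromosome 1 locus, miR-29c-3p, miR-29c-5p and miR-29b-2-5p, took 1.01% (95% exact interval 0.857 to 1.19) and 1.39% (1.18 to 1.62) of all locus-specific counts in GFP-AGO2. In Control they took 1.84% (1.53 to 2.20) and 1.90% (1.49 to 2.38). The GFP-AGO2 libraries were lower, although the intervals of GFP-AGO2 replicate 3 and both Control libraries overlapped. Most of these counts are miR-29c-3p and miR-29a-3p, so the share largely restates their ratio given above. Over the 5p arms alone the chromosome 1 locus took 75.6% and 84.4% in GFP-AGO2 and 83.0% and 96.3% in Control, and the groups overlapped. Within the miR-29b 5p counts, the arm of Mir29b-1 on chromosome 6 took 16 of 49 and 9 of 49 in GFP-AGO2, or 32.7% and 18.4%, and 2 of 31 and 1 of 18 in Control, or 6.45% and 5.56%. The exact intervals (19.9 to 47.5 and 8.76 to 32.0 in GFP-AGO2, 0.791 to 21.4 and 0.141 to 27.3 in Control) overlapped between the groups.

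As a whole the family took 0.541% (95% exact interval 0.532 to 0.549) and 0.617% (0.606 to 0.628) of the miRNA counts in GFP-AGO2 and 0.656% (0.640 to 0.672) and 0.586% (0.568 to 0.605) in Control. The libraries of the groups interleaved. The means were 0.579% ± 0.0538 in GFP-AGO2 and 0.621% ± 0.0492 in Control (SD, n = 2 each), a difference of -0.042 percentage points (exact two-sided permutation p = 0.667). A total without the miR-200 family and miR-183 cluster gave 0.555% and 0.650% in GFP-AGO2 and 0.862% and 0.765% in Control, without overlap (exact permutation p = 0.333). The names left out summed to 24650 and 46526 CPM in GFP-AGO2 and 250345 and 260332 CPM in Control. Leaving them out therefore raises mainly the Control shares, and the separation follows from that choice. Summed as TMM-scaled CPM the family had 5114 and 5625 in GFP-AGO2 and 6863 and 6521 in Control, also without overlap (exact permutation p = 0.333).

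By the root mean square difference of log2 CPM over the 4 libraries, each name centred on its own mean, the names outside the family closest to miR-29a-3p were miR-148b-3p (0.04), miR-151-3p (0.05), miR-1843b-5p (0.05) and miR-153-3p (0.07). The median over all other names tested was 0.57. MiR-29b-3p stood at 0.13, and miR-29c-3p at 0.44, on the same measure. None of the 4 closest names passed the edgeR test, with log2 fold changes of -0.34 to -0.20 and adjusted p-values of 0.165 to 0.691. They were picked for closeness over the same libraries, so fold changes near that of miR-29a-3p follow from the choice.

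Lists of cell type markers were set beside the family because miR-29 is made in neurons, glia and other cells. In a pull-down from whole tissue, fewer cells of a type, less RNA per cell and less recovery by the pull-down cannot be told apart. Of 11 tested neuron-enriched names, miR-9-5p (log2 fold change 1.14) and miR-9-3p (1.07) rose and miR-138-5p fell (-0.82), while the most abundant, miR-7a-5p of bulb interneurons, had -0.23 (adjusted p = 0.326). Of 9 tested names of astrocytes and other glia, miR-204-5p rose (0.74) and miR-181a-5p, the most abundant, fell (-0.46). The median log2 fold change was -0.35 in this list, -0.15 in the neuron-enriched list and -0.01 over all names tested. Among all names tested 17.3% were called higher and 17.1% lower, so the calls in both lists are near the background. With no scaling the median of all names moved by 1.68, and miR-138-5p (0.87), miR-181a-5p (1.22) and miR-7a-5p (1.5005) changed sign; with library totals it moved by 0.22, no sign among these names changed and miR-181a-5p was no longer called (-0.25, edgeR adjusted p = 0.132).

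The epithelial and sensory, immune, and vessel and blood lists summed to less CPM in the GFP-AGO2 libraries, where miR-29c-3p was also lower. The labels do not state whether these names come from cells of the bulb. The epithelial and sensory list (miR-200 family and miR-183 cluster) summed to 24649.7 and 46526 CPM in GFP-AGO2 and 250345 and 260332 CPM in Control. Among all names tested 17.1% were called lower, the share to set beside the calls of each list here. The lists were chosen with earlier results of these data known, so these counts of calls are a description and not a test. All 13 tested names of the epithelial and sensory list fell, with log2 fold changes of -3.31 to -2.62 (-1.77 to -0.93 with no scaling, where 6 were called and 7 were not). They were miR-200a-3p, miR-200a-5p, miR-200b-3p, miR-200b-5p, miR-200c-3p, miR-141-3p, miR-141-5p, miR-429-3p, miR-183-5p (the most abundant), miR-183-3p, miR-96-5p, miR-182-5p and miR-182-3p. With these names left out before scaling, miR-29c-3p had a log2 fold change of -1.18 (edgeR adjusted p = 0.0251), which bears on their weight in the library totals and not on the cells that make miR-29c-3p. The list of microglia and other immune cells summed to 275 and 427 CPM in GFP-AGO2 and 702 and 730 CPM in Control, and 2 of 4 tested names fell, miR-146a-5p (-2.17) and miR-150-5p (-2.38). The vessel and blood list summed to 273 and 1351 CPM in GFP-AGO2 and 4548 and 3483 CPM in Control. Of its 3 tested names, miR-145a-3p (-2.66) and miR-451a (-3.63) fell, and the most abundant, miR-143-3p, had -2.29 (adjusted p = 0.0637). With no scaling the 5 named immune and vessel names stayed below 0, at -2.05 to -0.65, but none was called (edgeR adjusted p = 0.0549 to 0.306). MiR-142-3p, miR-126a-3p, miR-126a-5p and miR-486-5p were listed at 0 and overlap another name. The part of epithelial, immune and vessel cells in the lower miR-29c-3p was not tested.

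**Figure D5:**
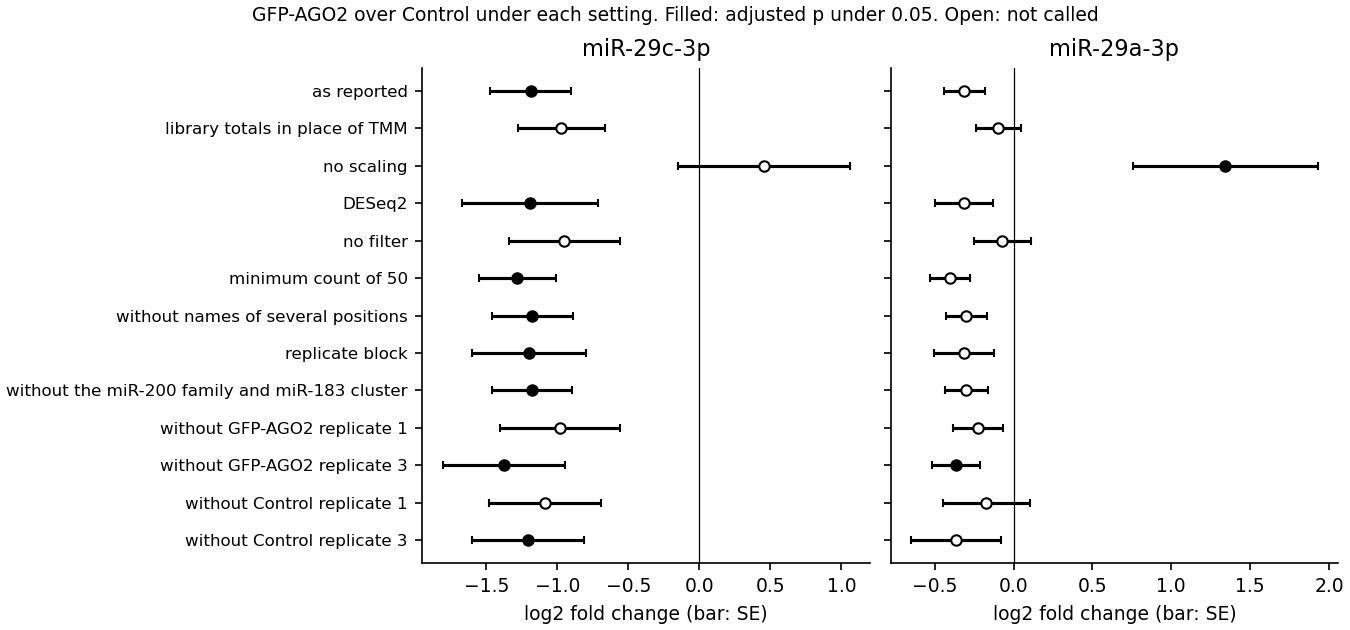
Log2 fold change of GFP-AGO2 over Control with its SE for miR-29c-3p (left) and miR-29a-3p (right) under each processing setting, filled where the adjusted p was under 0.05. MiR-29c-3p lies between -1.38 and -0.95 except with no scaling (0.45); miR-29a-3p lies between -0.40 and -0.07 except with no scaling (1.34).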

How the data were processed

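The deposited table holds raw counts per mature miRNA name; per the file headers, the authors counted primary alignments to mm10 over a miRBase annotation with featureCounts (v1.4.6-p1), without a strand option or an option for reads over overlapping names. Cutadapt and STAR are named, without versions, per the submitters' processing notes. Annotated lengths in the deposited file were not used as values. Columns were tied to samples by title.

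The test was edgeR's (version 4.0.16, under R 4.3.3; quasi-likelihood F test, TMM, filterByExpr with a minimum count of 10, 2 groups, no covariate), which kept 457 names, holding 99.88% to 99.93% of a library's counts. The fit was also run on data simulated with the same relative spread between replicates for every name. That run does not measure the error rate in these libraries. SE is the log2 fold change divided by the root of F. DESeq2 1.42.0 was an alternative. Shares and log2 ratios (0.5 added to each count) were compared by exact permutation in scipy 1.17.1. Share intervals are exact Clopper-Pearson intervals; intervals and limits cover counting error only, since PCR copies count as reads. Replicates of a group differed by more than sampling noise (chi-square 47711 on 475 degrees of freedom in GFP-AGO2, 4564 on 383 in Control).

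All 7 members were named, with the 4 names closest in pattern to the most abundant member, and of each marker list the most abundant tested name and every call. Members and lists were chosen with earlier results of these data known. All 7 names, which have 8 positions in the annotation, were matched by name to RefSeq sequences.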

Additional observations from a re-analysis of the deposited data

How the results depend on the processing

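The number of miR-29 arms called lower, 1 as reported, was 0 with library totals in place of TMM, 0 with no scaling and 0 with no filter, and ran from 0 to 2 when libraries were left out in turn; it was 0 without GFP-AGO2 replicate 1 or Control replicate 1. The number called higher, 0 as reported, was 2 with no scaling. No scaling moved the median of all names by 1.68 and turned the sign of all tested arms, to 1.34 for miR-29a-3p, 1.497 for miR-29b-3p, 0.66 for miR-29b-2-5p, 1.43 for miR-29c-5p and 0.45 for miR-29c-3p. Taken relative to the median of all names, miR-29c-3p stayed between -1.27 and -0.88 under every setting. The values near 0 also changed sign: miR-29b-3p was 0.046 with library totals and 0.0673 with no filter, and miR-29c-5p was 0.0516 and 0.06995, and ran from -0.63 to 0.23 (without GFP-AGO2 replicate 1) with libraries left out. With the replicate block miR-29c-3p had -1.20 (edgeR adjusted p = 0.043) and no call among the arms changed; the numbers do not pair the libraries by any label, and same-numbered libraries deviated with a correlation of -0.058 across names. With libraries left out in turn, the log2 ratio of miR-29a-3p to miR-29a-5p differed by -1.57 to 1.59 (0.01 as reported, 0.42 with a pseudocount of 1; -0.34 without GFP-AGO2 replicate 1 and -1.57 without Control replicate 1), and that of miR-29b-3p to miR-29a-3p by -0.00415 (without Control replicate 1) to 0.27. The first of these rests on the added count for a 0 of miR-29a-5p in Control replicate 3. The ratio of miR-29c-3p to miR-29a-3p ran from -1.02 to -0.76 and the family's share from -0.0801 to -0.00402 percentage points, with no change of sign. A group left with 1 library was assumed to vary like the other. No scaling leaves the difference in library totals in the fold changes (1858354 to 2809758 counts in GFP-AGO2, 673916 to 1006861 in Control). The cause of the other shifts was not tested. The 5p arms had 0 to 40 counts a library, which limits what could be detected.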
